A study of Mus musculus with 39 samples.

Results

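Levels of 8 genes that encode transcription regulators of meiotic and haploid male germ cells, Mybl1, Tcfl5, Brdt, Tbpl1, Taf7l, Crem, Rfx2 and Sox30, were followed in mouse testes that carried the mouse Insl3 gene, a whale INSL3 in its place, or no INSL3. The genes were taken by symbol from a list of known regulators and joined between the deposited count tables by Ensembl identifier. All 8 were found among the 21561 Ensembl genes that both tables hold, and all 8 passed the filter on low counts in each of the 14 comparisons. In WT testes 7 of the 8 were at their lowest at P8 and increased by P40 (between 5.64-fold for Mybl1 and 183-fold for Sox30), while Taf7l had its highest mean at P8. In INSL3-KI testes at P40 the same 7 genes were below WT in every library, as were 40.4% of all genes. Of the 7, 3 were called lower, where 22.1% of all genes were. With any 1 of the WT libraries left out, and so fewer libraries in the test, 0 of them were called. In the libraries labelled INSL3-KO at P23 they were below the libraries labelled WT at P23 by 2.89-fold for Mybl1 to 98.8-fold for Rfx2.

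Male germ cells switch gene programmes as they move from dividing spermatogonia through meiosis to haploid spermatids. This switching involves transcription regulators of germ cells, some of which are relatives of general transcription factors. MYBL1, also called A-MYB, drives genes of pachytene spermatocytes, among them the factors and precursors of pachytene piRNAs. TCFL5 is a basic helix-loop-helix factor of spermatocytes, and BRDT is the testis member of the BET family, which reads acetylated histones. TBPL1, also called TRF2, is a relative of the TATA-binding protein TBP, and TAF7L is an X-linked relative of the TFIID subunit TAF7. CREM switches on genes of haploid spermatids such as those of protamines and transition proteins, RFX2 binds X-box sites of genes for cilia and the sperm tail, and SOX30 acts at the start of the spermatid programme. INSL3 itself is a hormone of Leydig cells that acts through its receptor RXFP2 on the gubernaculum, the ligament that brings the testis down.

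Testis RNA came from male C57BL/6J mice at postnatal days 8, 23 and 40 (P8, P23 and P40), in 8 groups of 3 libraries labelled as biological replicates. WT mice carried the mouse Insl3 gene. INSL3-KI mice were homozygous for minke whale INSL3 cDNA placed at the mouse Insl3 locus, which left the mouse promoter in place. They no longer carried the neomycin cassette used for targeting. Per the study's methods the line was bred to give INSL3-KI and WT mice of the same litters. The same methods also name WT C57BL/6J mice older than P40 for control groups. Which WT mice gave each library is not stated. INSL3-KO mice lacked INSL3 and were sampled at P8 and P23 alone; how that allele was made and whether a library pooled animals are not given in the sources used here. The labels name no treatment. The 24 testis libraries held 33000204 to 42629270 counts each, with a median of 38405047. Levels are given as CPM, counts scaled to a common library total, after TMM scaling over the 24 libraries, which suits a comparison of a gene between libraries, and as the deposited FPKM, which are per length, where genes are compared with each other. Libraries of WT testes at P23 and of all INSL3-KO testes were counted in another table than the rest, so differences between INSL3-KO and WT at P8, between INSL3-KI and WT or INSL3-KO at P23, and between WT at P23 and WT at P8 or P40 were taken across tables. A gene is called when its edgeR adjusted p is under 0.01 and its fold change is at least 2. The study's methods state these thresholds for DESeq2, which is used here as an alternative.

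The targeted gene was read first. Mouse Insl3 stood at 73.0, 79.7 and 63.5 CPM in WT libraries at P8, at 834, 1023 and 986 CPM in those labelled WT at P23 and at 883, 823 and 999 CPM at P40. The INSL3-KI libraries held 0.727, 0.380 and 0.531 CPM at P8, 1.42, 1.96 and 2.32 CPM at P23 and 11.7, 11.1 and 12.5 CPM at P40. The libraries labelled INSL3-KO held 0, 0.115 and 0 CPM at P23 but 17.7, 17.9 and 13.5 CPM at P8, so the P8 libraries with this label did hold reads of the gene they are said to lack, and they are called by their label throughout. A further point concerns WT at P23. The libraries with this label held Prm2, a protamine of elongating spermatids, at 2922, 4042 and 4025 CPM, against 3833, 3670.3 and 2659 CPM at P40, and 270 genes were called lower and 493 higher at P40 than at P23 of 16438 tested, whereas WT at P40 and P8 differed in 4704 and 5388 of 16892. Tnp2, a transition protein, was at 3377, 3803 and 3515 CPM in the libraries labelled WT at P23, against 2126, 2427 and 2360 CPM at P40. Every comparison with WT at P23 rests on these libraries. Whether a difference of age enters those comparisons beside genotype was not tested. All 12 Sertoli cell, all 9 Leydig cell and all 10 spermatogonium markers had counts in each of the 8 groups. Within INSL3-KI, 3 libraries stood apart from the others of their group in germ cell genes: replicate 2 at P8, replicate 3 at P23 and replicate 1 at P40. Summed over 13 spermatocyte markers, the 3 libraries were at 859.8, 2124 and 676 CPM at P8, 4901, 4855 and 2712 CPM at P23 and 2683, 583 and 492 CPM at P40, in the order of the replicate numbers.

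In WT testes, 7 of the 8 regulators were called higher at P40 than at P8 by edgeR, where 31.9% of all 16892 genes tested were. The median of the 8 log2 differences was 4.70, against -0.03 over all genes. The same 7 were higher in every library at P40 than in any library at P8, and 43.9% of all genes were. Taf7l was the exception: its P40 libraries were all below its P8 libraries, a pattern of 41.3% of all genes, with a log2 difference of -0.93 ± 0.25 (SE; edgeR adjusted p = 0.0103) that missed the threshold. Scaling by library size alone moved the median of all genes by -0.68 on the log2 scale; the 7 genes remained higher and Taf7l was then called lower, with a log2 difference of -1.61 (edgeR adjusted p = 0.000784). Between P23 and P8 the same count of 7 was called higher (32.8% of all genes) and lay above P8 in every library (44.9% of all genes), and between P40 and P23 none of the 8 was called by edgeR, DESeq2 or limma, where edgeR called 4.64% of all genes. In that last comparison 6 of the 8 had an unadjusted p under 0.05, with log2 differences between -0.45 and 0.45. Crem, Sox30, Tbpl1, Taf7l and Brdt were lower in each P40 library than in any at P23 (29.7% of all genes) and Tcfl5 and Rfx2 higher (25.4%). In bulk tissue, fewer cells of a type and less RNA per cell cannot be told apart, which holds for every difference below. At P40 against P8, 53.4% of all calls were higher, and 37.8% under library size scaling, and at P23 against P8 the shares were 53.1% and 36.9%.

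**Figure D1:**
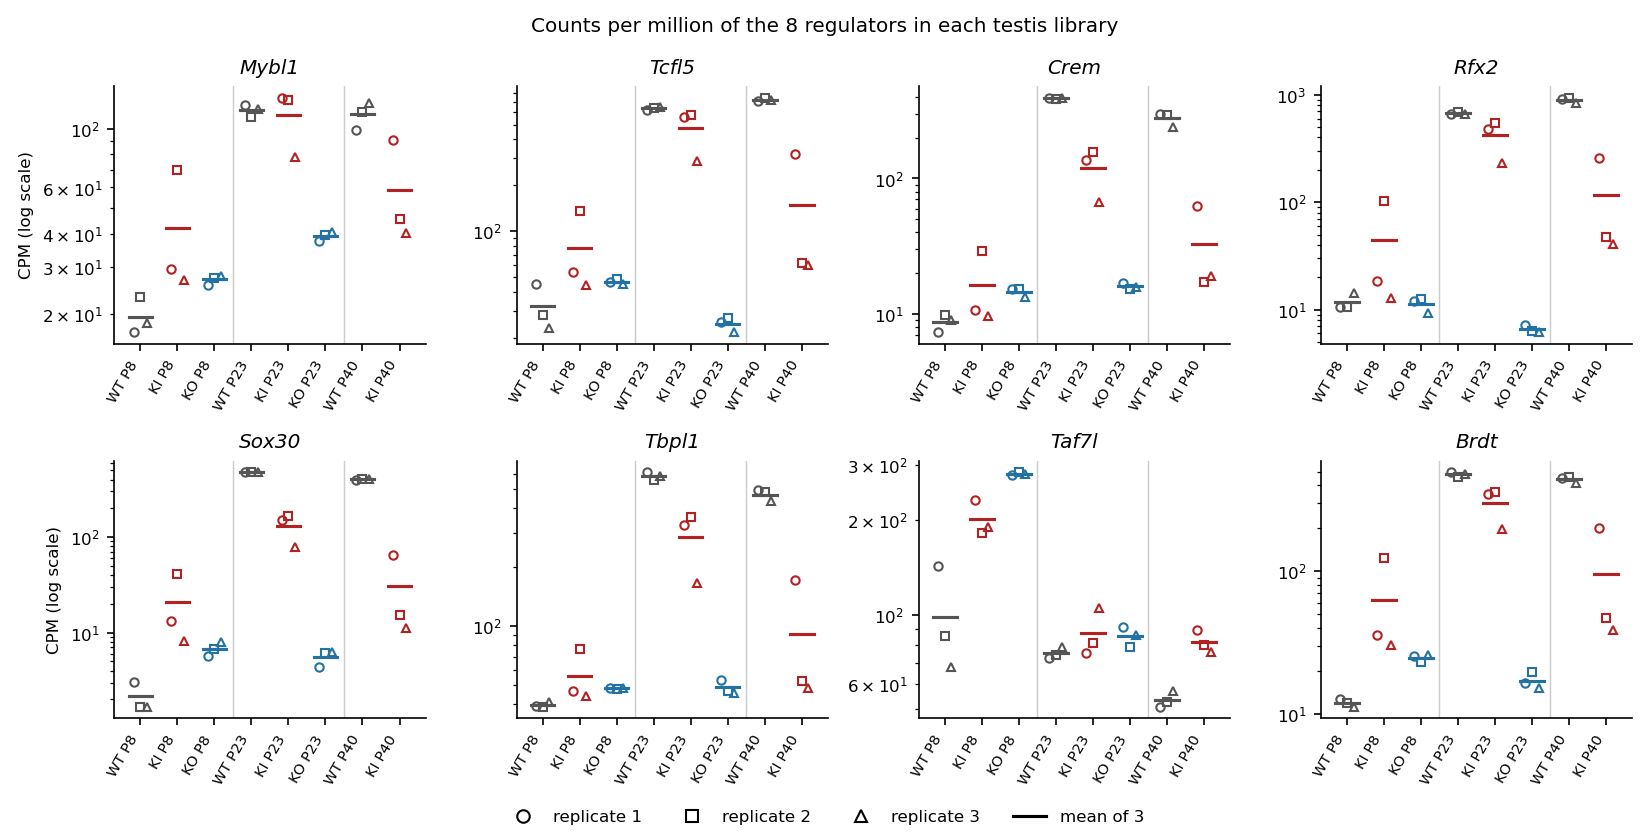
CPM (log scale, a separate axis for each gene) of the 8 regulators in each of the 24 testis libraries, with WT in grey, INSL3-KI in red and INSL3-KO in blue, a symbol for each replicate number and a line at the mean of 3. For 7 genes the WT groups at P23 and P40 sit far above P8, the 3 INSL3-KI libraries at P40 sit below WT with replicate 1 the highest, and the blue P23 points stay near the P8 level; Taf7l runs the other way, with its highest points in the blue P8 group.

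Promoter sequence was read for the genes with an entry in the RefSeq table for GRCm38.p6: 6 of the 8, all but Mybl1 and Crem. Each window held the 250 bases before the start site, and 6 short motifs were searched on both strands: CNGTTG, bound by MYB factors, TGACG, the core of the cAMP response element bound by CREM, GTTGCC, a core of the X-box bound by RFX factors, the E-box CACGTG bound by helix-loop-helix factors, ACAATG of SOX factors and TATAAA. Among all 32851 windows of this length in the table they were present in 29.3%, 17.8%, 10.4%, 6.02%, 10.7% and 12.4%. The windows of Rfx2 (chr17:56831009-56831258, minus strand), Tcfl5 (chr2:180642692-180642941, minus strand) and Taf7l (chrX:134476491-134476740, minus strand) are shown because all 3 hold MYB motifs and because Rfx2 and Taf7l ran opposite courses in WT, with capitals marking motif matches.
Rfx2: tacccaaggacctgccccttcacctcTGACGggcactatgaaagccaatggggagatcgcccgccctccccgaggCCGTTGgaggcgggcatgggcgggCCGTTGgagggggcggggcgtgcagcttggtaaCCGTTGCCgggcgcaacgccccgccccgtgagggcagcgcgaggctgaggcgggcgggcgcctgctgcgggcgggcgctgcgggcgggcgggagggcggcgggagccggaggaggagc
Tcfl5: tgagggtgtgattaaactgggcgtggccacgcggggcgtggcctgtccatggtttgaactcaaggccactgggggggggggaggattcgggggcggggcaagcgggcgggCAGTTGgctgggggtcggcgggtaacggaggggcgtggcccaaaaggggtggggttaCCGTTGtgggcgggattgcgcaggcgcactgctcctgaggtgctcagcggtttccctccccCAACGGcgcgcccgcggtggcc
Taf7l: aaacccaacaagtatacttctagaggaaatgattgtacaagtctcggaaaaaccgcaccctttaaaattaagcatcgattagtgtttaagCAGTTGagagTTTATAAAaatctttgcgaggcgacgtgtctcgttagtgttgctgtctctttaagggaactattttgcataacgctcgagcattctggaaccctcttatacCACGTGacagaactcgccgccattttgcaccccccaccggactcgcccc
The Rfx2 window held CCGTTG at positions -175, -151 and -118 (first base of the match, -1 being the base before the start), TGACG at -224, and GTTGCC at -116, which overlaps the last MYB match. The Tcfl5 window held the MYB motif at -140 and -83 and, on the opposite strand, at -22. In the Taf7l window lay CAGTTG at -160, TATAAA at -148 with its opposite-strand form TTTATA overlapping from -150, and CACGTG at -49. Brdt had a CACGTG at -78, and the windows of Sox30 and Tbpl1 had no match of the 6. The Rfx2 window was 76.0% G and C with 30 CG dinucleotides and that of Taf7l 44.8% with 14, where the median of all windows was 6. A match is a description of letters and was not tested as a site.

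Mybl1 (ENSMUSG00000025912; chr1:9667415-9700209, minus strand, GRCm38), the pachytene activator, stood at 17.0, 23.01 and 18.4 CPM in WT at P8, 123, 111 and 119 CPM at P23 and 99.2, 116 and 125 CPM at P40. The P23 and P40 libraries overlapped, and both lay above P8. INSL3-KI libraries gave 29.6, 70.2 and 26.9 CPM at P8, 131, 129 and 78.0 CPM at P23 and 90.9, 45.5 and 40.2 CPM at P40. Those labelled INSL3-KO gave 25.7, 27.3 and 27.8 CPM at P8 and 37.7, 39.6 and 40.6 CPM at P23. INSL3-KI and WT overlapped at P23, and at P8 the INSL3-KI libraries were all higher and at P40 all lower than WT. The INSL3-KI minus WT log2 difference was 1.17 ± 0.37 (SE; edgeR adjusted p = 0.0475) at P8, -0.06 ± 0.21 (SE; edgeR adjusted p = 0.832) at P23 and -0.91 ± 0.31 (SE; edgeR adjusted p = 0.0331) at P40, none of them a call. At P23 its sign turned under scaling by library size, to 0.40. INSL3-KO minus WT at P23 was -1.53 ± 0.06 (SE; edgeR adjusted p = 3.25e-09), the smallest fall among the 7 genes that fell, and it was under 2-fold when scaled by library size (-0.89).

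Tcfl5 (ENSMUSG00000038932; chr2:180621956-180642708, minus strand), the spermatocyte helix-loop-helix factor, rose in WT from 45.2, 28.4 and 23.3 CPM at P8 to 625, 642 and 652 CPM at P23 and 710.0, 749 and 719 CPM at P40. In INSL3-KI it was at 53.8, 135 and 44.3 CPM at P8, 561, 574 and 289 CPM at P23 and 323, 61.7 and 59.9 CPM at P40. Under the label INSL3-KO it was at 46.5, 48.9 and 45.0 CPM at P8 and 25.5, 27.1 and 21.8 CPM at P23. At P8 the 3 genotypes overlapped. At P23 every INSL3-KI library lay far above those of INSL3-KO, and at P40 replicates 2 and 3 of INSL3-KI were within the range of INSL3-KI at P8 while replicate 1 was not. The log2 difference of INSL3-KI from WT was -2.28 ± 0.69 (SE; edgeR adjusted p = 0.023) at P40, short of the threshold; without replicate 1 of INSL3-KI it was called, at -3.50. INSL3-KO fell below WT at P23 by 4.63 on the log2 scale (SE 0.08, edgeR adjusted p = 7.44e-12). Col9a3 overlaps an exon of Tcfl5 on the opposite strand, and whether the counting used strand is not given in the sources used here; Col9a3 stayed between 1.71 and 10.1 CPM in the 24 libraries.

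Brdt (ENSMUSG00000029279; chr5:107331159-107387058, plus strand), the testis reader of acetylated histones, was at 12.8, 11.9 and 11.2 CPM in WT at P8, 494, 462 and 478 CPM at P23 and 449.7, 458 and 417 CPM at P40. INSL3-KI libraries were at 35.8, 124 and 30.5 CPM at P8, 350.3, 359 and 198 CPM at P23 and 201, 47.4 and 39.0 CPM at P40. Libraries labelled INSL3-KO were at 25.5, 23.1 and 25.8 CPM at P8 and 16.5, 19.6 and 15.2 CPM at P23. WT at P8 lay below every other group. At P8 Brdt was called higher in the libraries labelled INSL3-KO than in WT, by 1.07 ± 0.10 (SE; edgeR adjusted p = 0.000128) on the log2 scale, whereas the larger difference of INSL3-KI from WT, 2.45 ± 0.54 (SE; edgeR adjusted p = 0.0166), missed the threshold, its replicate 2 lying far above the others. Without that library the difference was 1.55 and was called. At P40 INSL3-KI minus WT was -2.19 ± 0.64 (SE; edgeR adjusted p = 0.0196), and at P23 INSL3-KO minus WT was -4.75 ± 0.09 (SE; edgeR adjusted p = 1.38e-11).

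Tbpl1 (ENSMUSG00000071359; chr10:22703879-22731938, minus strand), the TBP relative, was at 39.0, 38.9 and 40.8 CPM in WT at P8, 609, 556 and 581 CPM at P23 and 493, 482 and 434 CPM at P40. INSL3-KI gave 46.5, 76.1 and 44.1 CPM at P8, 329, 361 and 166 CPM at P23 and 172, 52.8 and 48.5 CPM at P40. INSL3-KO gave 48.4, 47.9 and 48.6 CPM at P8 and 53.3, 47.0 and 45.8 CPM at P23, 2 overlapping sets. Tbpl1 was called lower in INSL3-KI than in WT at P40, with a log2 difference of -2.34 ± 0.51 (SE; edgeR adjusted p = 0.00655), and lost the call under library size scaling, where the difference was -1.75 (edgeR adjusted p = 0.0128). At P23 it was called lower in INSL3-KO than in WT, at -3.53 ± 0.07 (SE; edgeR adjusted p = 1.65e-11). Slc2a12, on the opposite strand, overlaps an exon of Tbpl1. At P40 its difference was opposite to that of Tbpl1, at 6.21 to 7.88 CPM in WT and 29.3 to 35.5 CPM in INSL3-KI, while at P8 both genes were higher in INSL3-KI, Slc2a12 at 1.52 to 2.10 and 12.8 to 17.3 CPM.

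Taf7l (ENSMUSG00000009596; chrX:134460118-134476490, minus strand), the TAF7 relative, took another course. WT libraries held 142, 85.1 and 67.7 CPM at P8, 72.9, 74.1 and 78.8 CPM at P23 and 50.7, 52.3 and 57.1 CPM at P40. INSL3-KI libraries held 232, 183 and 189.8 CPM at P8, 75.4, 81.2 and 105 CPM at P23 and 88.9, 79.7 and 75.7 CPM at P40. Those labelled INSL3-KO held 278, 285 and 282 CPM at P8 and 91.1, 78.8 and 85.9 CPM at P23. At P8 the genotypes were in the order WT, INSL3-KI, INSL3-KO with no overlap, and at P23 all 3 overlapped. At P8 Taf7l was called higher in the libraries labelled INSL3-KO than in WT (1.54 ± 0.25, edgeR adjusted p = 0.00175), and INSL3-KI minus WT was 1.10 ± 0.28 (SE; edgeR adjusted p = 0.0248). WT replicate 1 held the most Taf7l of the WT libraries at P8; without it INSL3-KI was called higher too, at 1.42. From P8 to P23 Taf7l fell by 1.71 in INSL3-KO and by 1.35 in INSL3-KI on the log2 scale (edgeR adjusted p = 8.02e-12 and 0.0088). At P40 it stood above WT in all 3 INSL3-KI libraries, with a log2 difference of 0.65 ± 0.11 (SE; edgeR adjusted p = 0.00218), which is under 2-fold; scaled by library size it was 1.26 and was called.

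Crem (ENSMUSG00000063889; chr18:3266048-3337748, minus strand), the spermatid activator, was at 7.37, 9.75 and 9.10 CPM in WT at P8, 395, 388 and 392 CPM at P23 and 301, 296 and 240.1 CPM at P40, the P23 libraries lying above those of P40. INSL3-KI libraries were at 10.7, 29.2 and 9.60 CPM at P8, 137, 156 and 67.5 CPM at P23 and 63.1, 17.1 and 18.9 CPM at P40. Libraries labelled INSL3-KO were at 15.4, 15.3 and 13.3 CPM at P8 and 17.0, 15.2 and 15.9 CPM at P23, an overlapping pair. Crem was called lower in INSL3-KI than in WT at both later ages, with log2 differences of -1.70 ± 0.31 (SE; edgeR adjusted p = 0.00582) at P23 and -3.05 ± 0.54 (SE; edgeR adjusted p = 0.0028) at P40, and lower in INSL3-KO than in WT at P23, with -4.56 ± 0.06 (SE; edgeR adjusted p = 8.33e-13). Without any 1 of the WT libraries of the age neither call of INSL3-KI held. The annotation lists 39 transcripts of Crem, whose products include activators and the repressor ICER, and a count per gene does not tell them apart.

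Rfx2 (ENSMUSG00000024206; chr17:56775897-56831013, minus strand), the factor of cilium and sperm tail genes, stood in WT at 10.49, 10.6 and 14.2 CPM at P8, 664, 694 and 668 CPM at P23 and 908, 938 and 846 CPM at P40. INSL3-KI libraries gave 18.3, 102 and 12.95 CPM at P8, 483, 542 and 233 CPM at P23 and 259.7, 47.2 and 40.9 CPM at P40. INSL3-KO libraries gave 12.1, 12.5 and 9.33 CPM at P8 and 7.23, 6.37 and 6.19 CPM at P23, so that the P23 libraries were below all P8 libraries of the 3 genotypes. The spread within INSL3-KI was wide at each age, replicate 2 being the high one at P8 and replicate 1 at P40. Rfx2 had the largest difference of the 8 between INSL3-KO and WT at P23, -6.63 ± 0.07 (SE; edgeR adjusted p = 3.53e-13). INSL3-KI minus WT at P40 was -2.94 ± 0.76 (SE; edgeR adjusted p = 0.0125), just outside the threshold, and -4.27 and called without INSL3-KI replicate 1. At P8 the libraries labelled INSL3-KO overlapped WT, with a log2 difference of -0.04 ± 0.17 (SE; edgeR adjusted p = 0.877) whose sign turned under library size scaling (0.09).

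Sox30 (ENSMUSG00000040489; chr11:45980310-46017994, plus strand), the regulator of the early spermatid programme, had the largest rise of the 8 with age in WT. WT libraries were at 3.07, 1.67 and 1.68 CPM at P8, 474, 475 and 474 CPM at P23 and 395, 409 and 408 CPM at P40. INSL3-KI libraries were at 13.1, 40.7 and 8.21 CPM at P8, 149.99, 167 and 78.5 CPM at P23 and 64.8, 15.4 and 11.2 CPM at P40. Libraries labelled INSL3-KO were at 5.73, 6.68 and 7.97 CPM at P8 and 4.35, 6.12 and 6.19 CPM at P23. At P8 both mutant groups lay above WT without overlap, at P23 and P40 INSL3-KI lay below it, and INSL3-KO at P23 lay lower still. Against WT, INSL3-KI was 3.32 ± 0.65 (SE; edgeR adjusted p = 0.0118) at P8, which missed the threshold, -1.85 ± 0.28 (SE; edgeR adjusted p = 0.00372) at P23 and -3.71 ± 0.70 (SE; edgeR adjusted p = 0.00371) at P40. INSL3-KO was 1.69 ± 0.30 (SE; edgeR adjusted p = 0.00262) at P8 and -6.36 ± 0.10 (SE; edgeR adjusted p = 5.17e-12) at P23. Leaving out any 1 WT library, or INSL3-KI replicate 2, removed the P40 call, and leaving out any 1 WT library, or INSL3-KI replicate 1, removed that at P23.

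At P8 none of the 8 was called between INSL3-KI and WT by edgeR, where 6.29% of all 15702 genes were, although 7 had an unadjusted p under 0.05 and all 8 differences were above 0, with a median of 1.24 against 0.00 for all genes. DESeq2 called 5 of them higher (Mybl1, Tcfl5, Sox30, Taf7l and Brdt) and a fit of all testis groups together called 4. Over all genes DESeq2 called 1022 higher and that fit 958, against 476 with edgeR on these groups. Without INSL3-KI replicate 2 edgeR called 2 of the 8 (Sox30 and Brdt). Without WT replicate 1 it called Taf7l alone. Of the 8, 5 were higher in each INSL3-KI library than in any WT library, as were 23.9% of all genes. The libraries labelled INSL3-KO at P8 had 3 of the 8 called higher than WT (Taf7l, Sox30 and Brdt), against 5.44% of all genes, with a median of 0.66, across tables, and 6 of the 8 were higher in each library than in WT, as were 30.4% of all genes. That count of 3 was 1 (Brdt) without WT replicate 2 and 2 (Taf7l and Brdt) without INSL3-KO replicate 2 or 3. Between INSL3-KI and WT, 48.2% of all calls were higher, and 65.8% under library size scaling. Spermatocyte markers moved with these values: 10 of 12 tested were called higher in INSL3-KI (median log2 difference 3.99) and 11 of 12 in those labelled INSL3-KO (median 3.27), and their summed level was 72.2 to 145 CPM in WT, 676 to 2124 CPM in INSL3-KI and 899.9 to 918 CPM in INSL3-KO. Of the Leydig cell markers, Insl3 among them, 5 of 9 were called lower and 1 (Hsd3b6) higher in INSL3-KI, and 4 lower and 1 (Hsd3b6 again) higher in the libraries labelled INSL3-KO, with summed levels of 879 to 1047 CPM in WT, 354 to 363 CPM in INSL3-KI and 565 to 583 CPM in INSL3-KO. Epididymis markers, summed over 6 genes, stood at 0.549, 30.5 and 42.3 CPM in WT, 1.21, 1.49 and 82.1 CPM in INSL3-KI and 86.5, 92.1 and 85.2 CPM in INSL3-KO. Of all genes, 3.03% were called higher and 3.25% lower in INSL3-KI, and 5.44% and 8.37% in the libraries labelled INSL3-KO. The part of these marker levels in the regulators' values was not tested.

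At P23 the libraries labelled INSL3-KO had 7 of the 8 called lower than those labelled WT, all but Taf7l, where 33.4% of all 16732 genes were called lower. The median of the 8 was -4.60, against 0.06 for all genes. Those 7 lay below every WT library (45.4% of all genes did). The count was 7 without any 1 of the 6 libraries, and 6, without Mybl1, under library size scaling, which moved the median of all genes by 0.64. In this comparison 48.2% of all calls were higher, and 61.3% under library size scaling. INSL3-KI at P23 had 2 called lower than WT across tables (Crem and Sox30), against 11.8% of all genes, and 6 of the 8 below every WT library (33.6% of all genes). The call count at P23 was 0 without any 1 of the WT libraries or without INSL3-KI replicate 1, and 2 without INSL3-KI replicate 2 or 3. Here 42.6% of all calls were higher, and 71.3% under library size scaling. Between INSL3-KI and INSL3-KO at P23, again across tables, 7 were called higher in INSL3-KI, where 25.2% of all genes were, and lay above every INSL3-KO library (40.1% of all genes), with log2 differences from 1.52 for Mybl1 to 5.99 for Rfx2; Taf7l differed by 0.03 ± 0.15 (SE; edgeR adjusted p = 0.874).

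At P40 INSL3-KI testes had 3 of the 8 called lower than WT (Sox30, Crem and Tbpl1) and none higher, where 22.1% of all 16677 genes were called lower. The median of the 8 was -2.31, against 0.09. All but Taf7l lay below every WT library (40.4% of all genes did), and Taf7l lay above them (42.9% did). The count moved when a library of either group was left out. How many of all genes were called in these smaller fits is not given here. Whether a drop came from the library left out or from having fewer libraries was not tested. Without INSL3-KI replicate 1 it was 7, without replicate 2 it was 1 (Crem) and without replicate 3 it was 2 (Crem and Sox30). Without any 1 of the WT libraries it was 0. The log2 differences of the 7 genes other than Taf7l kept their sign in each of these fits. DESeq2 called 7 lower, and library size scaling gave 2 lower (Crem and Sox30) and 1 higher (Taf7l), with the median of all genes moved by 0.61. Over all genes edgeR called 3690 lower and 4264 higher, DESeq2 5428 and 3986, and library size scaling 2458 and 6583. Of the whole table, 53.6% of all calls were higher, and 72.8% under library size scaling.

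**Figure D2:**
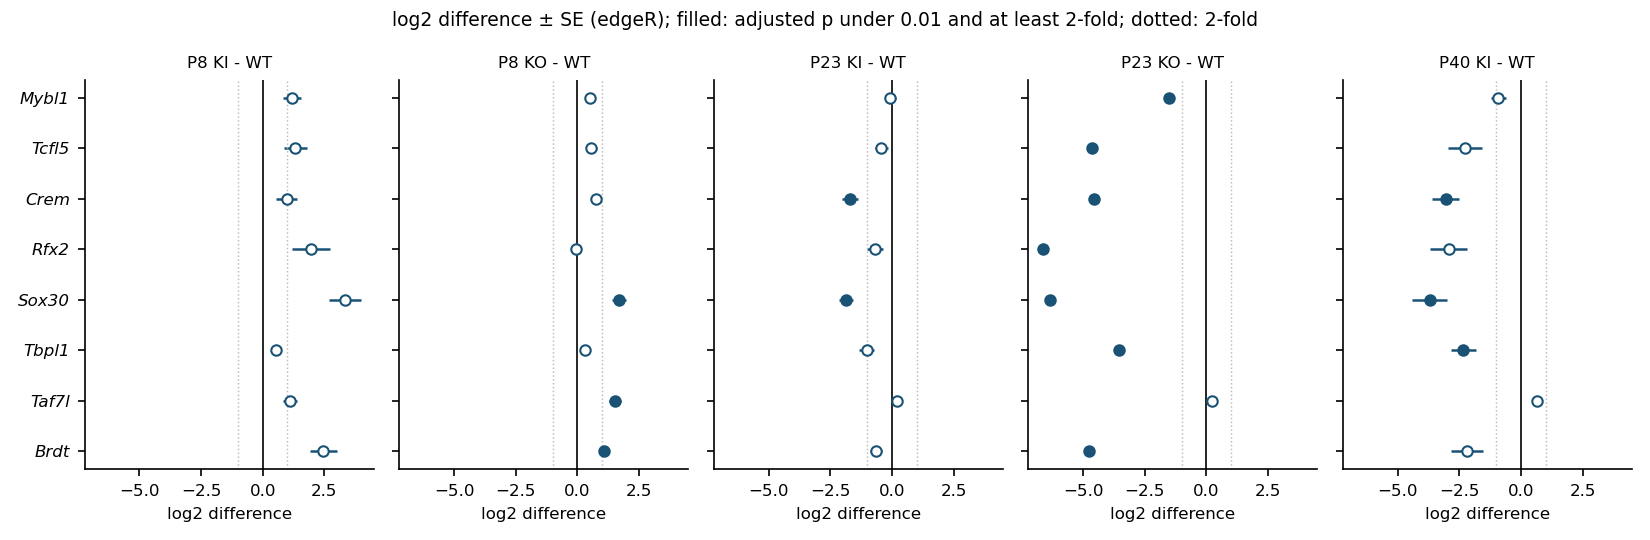
log2 difference from WT (x axis, points; bars are SE from edgeR) of the 8 regulators in INSL3-KI (KI) and INSL3-KO (KO) testes at each age, on 1 common scale, filled where the adjusted p is under 0.01 and the change at least 2-fold. All KI points at P8 are to the right of 0, all but Taf7l are to the left at P40, and the P23 KO panel has 7 filled points, all to the left of 0, from Mybl1 at -1.53 to Rfx2 at -6.63.

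Germ cell and somatic markers differed in these comparisons too. At P40 the summed round spermatid markers were at 1866 to 2411 CPM in WT and 202, 33.8 and 35.0 CPM in the 3 INSL3-KI libraries, and 9 of 10 were called lower. Of the spermatocyte markers 1 of 13, Pgk2, was called lower, with a list median of -1.04. Of 10 spermatogonium markers 6 were called higher and 0 lower, with a list median of 1.44. Of 9 Leydig cell markers 5 were called higher and 2 lower. Among all genes at P40, 22.1% were called lower and 25.6% higher. Sertoli cell markers were called higher in 12 of 12, with sums of 1901 to 2178 CPM in WT and 6209 to 8819 CPM in INSL3-KI, and macrophage markers in 8 of 8, with sums of 129.6 to 170.1 and 408 to 565 CPM. INSL3-KI replicate 1, which held the most of all 8 regulators, also held the most spermatocyte and round spermatid and the least Sertoli cell signal of the 3. In INSL3-KO at P23, 13 of 13 spermatocyte and 10 of 10 round spermatid markers were called lower than in the libraries labelled WT. Sertoli cell markers were called higher in 12 of 12. Among all genes 33.4% were called lower there and 31.1% higher. At P23 INSL3-KI had 8 of 10 round spermatid and 2 of 13 spermatocyte markers called lower than WT, where 11.8% of all genes were. The part of these shifts in the regulators' levels was not tested.

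**Figure D3:**
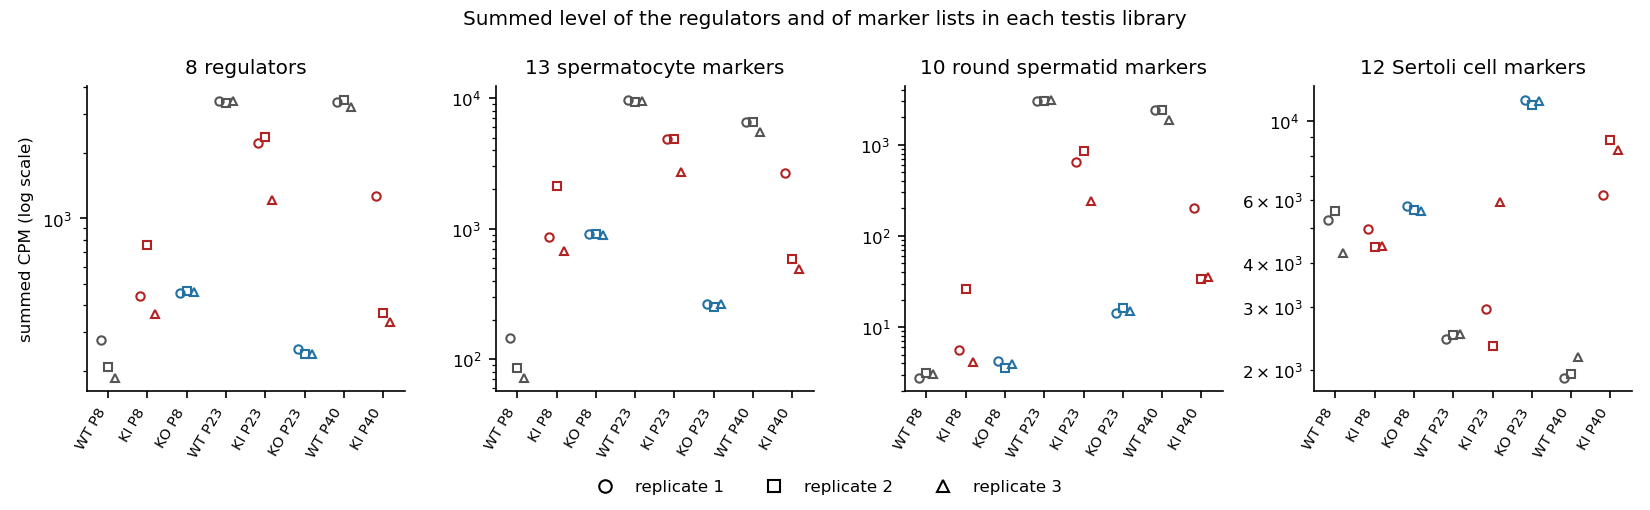
Summed CPM (log scale) of the 8 regulators and of 3 marker lists in each testis library, coloured by genotype as in the plot of single genes, with a symbol for each replicate number. The INSL3-KI libraries that stand apart, replicate 2 at P8, replicate 3 at P23 and replicate 1 at P40, do so in the first 3 panels, and the Sertoli panel is highest for INSL3-KO at P23 (11107 to 11469 CPM).

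From P8 to P23 in INSL3-KI, edgeR called Tbpl1 higher (2.22 ± 0.37, edgeR adjusted p = 0.00948) and Taf7l lower, where 5.7% of all 16412 genes were called higher and 3.53% lower. In each P23 library 7 of the 8 were higher than in any P8 library (33.9% of all genes) and Taf7l was lower (24.9%), with a median of the 8 of 2.35. This count moved when a library was left out. Without replicate 2 at P8 all 8 were called, 7 higher and Taf7l lower. Without replicate 3 at P23 the count was 4, and without any 1 of the other libraries it was 0. From P23 to P40 in INSL3-KI no gene of 16328 was called by edgeR (0%), so neither was any regulator, although 7615 genes, 5 of the 8 among them, had an unadjusted p under 0.05. DESeq2 called 874 genes lower and 301 higher there and none of the 8, and limma none of the 8. A fit of all testis groups together called Crem, Sox30 and Tbpl1 lower, among 2442 of all genes called lower and 892 higher. The regulators' log2 differences ran from -2.13 to -0.09, and Crem and Sox30 were lower in each P40 library than in any at P23 (18.4% of all genes). In INSL3-KO from P8 to P23 edgeR called Taf7l lower and none higher, where 11.7% of all genes were called lower. Of the other 7, Tcfl5 (-0.90), Rfx2 (-0.76) and Brdt (-0.52) had P23 libraries below all P8 libraries at less than 2-fold, as did 39.1% of all genes at any fold, Mybl1 (0.56) lay above them, as did 36.5%, and the rest overlapped. Library size scaling added Tcfl5 and Rfx2 to the genes called lower. Over all genes it called 2651 lower, against 1844 with TMM scaling.

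Tests of the difference itself bear on 2 of these contrasts. The INSL3-KI effect at P40 minus that at P8 was called lower for 7 of the 8, where 22.5% of all 17354 genes were: -7.11 for Sox30, -4.98 for Rfx2, -4.72 for Brdt, -4.10 for Crem, -3.68 for Tcfl5, -2.97 for Tbpl1 and -2.16 for Mybl1, on the log2 scale, with edgeR adjusted p values from 0.000222 to 0.00433. Taf7l differed by -0.52 ± 0.33 (SE; edgeR adjusted p = 0.181), and its sign turned under library size scaling (0.06). The 7 fell to 4 (Crem, Sox30, Tbpl1 and Brdt) without WT replicate 1 or 2 at P40. They were 5 without any 1 of the WT libraries at P8 or without INSL3-KI replicate 2 at P40. The count was 6 without INSL3-KI replicate 2 at P8 and 7 without INSL3-KI replicate 1 at P40. Library size scaling, the replicate block, DESeq2 and limma each called 6. The change from P8 to P23 was larger in INSL3-KI than in INSL3-KO for 6 of the 8, where 11.7% of all 17052 genes were called higher: 3.97 for Rfx2, 3.48 for Tcfl5, 2.92 for Sox30, 2.74 for Brdt, 2.69 for Crem and 2.30 for Tbpl1 (edgeR adjusted p from 0.00207 to 0.00921). This count was 7 without INSL3-KI replicate 2 at P8, 6 without INSL3-KI replicate 3 at P23, and 2 (Tcfl5 and Tbpl1) without any 1 of the other 10 libraries. Both ages of INSL3-KI come from the first table and both ages of INSL3-KO from the second.

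**Figure D4:**
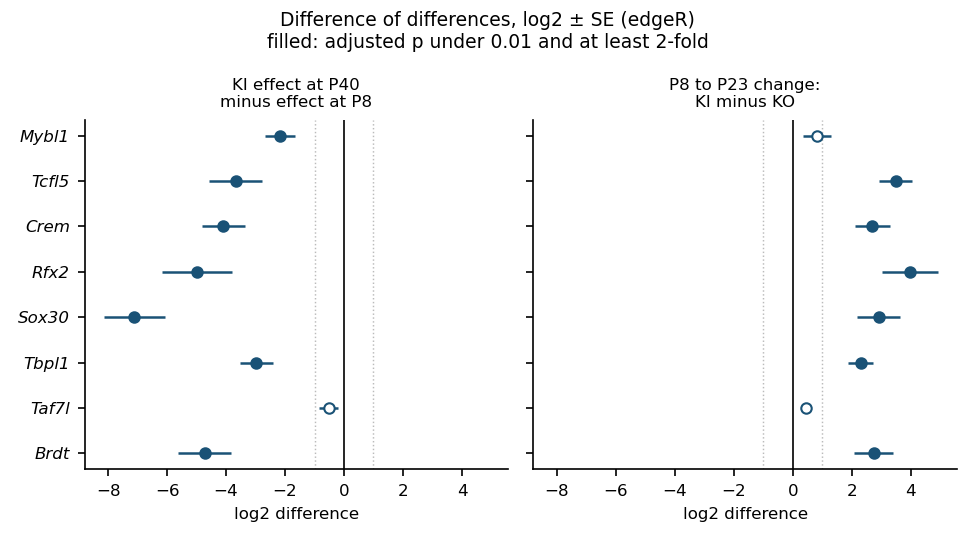
Difference of differences on the log2 scale (x axis, points; bars are SE from edgeR) for the 8 regulators, on 1 common scale: at left the INSL3-KI effect at P40 minus that at P8, at right the change from P8 to P23 in INSL3-KI minus that in INSL3-KO. Sox30 lies farthest from 0 at left and Rfx2 at right; Taf7l is open in both panels and Mybl1 at right.

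Lists of genes tied to CREM, A-MYB or RFX2 were counted next. The list for RFX2 is a general class, and whether each of its genes needs RFX2 was not tested. Of the spermatid genes that need CREM, 7 of 7 were called lower in INSL3-KI at P40 (median -9.36) and 7 of 7 in INSL3-KO at P23 (median -12.65); Prm1, a protamine, was at 1388 ± 198 CPM in WT and 1.13 ± 1.54 CPM in INSL3-KI at P40 (SD, n = 3), the latter spread being wider than its mean. Already at P23 5 of 7 were called lower in INSL3-KI than in WT, with a median of -5.35, beside the -1.70 of Crem itself. Of the pachytene piRNA factors under A-MYB, 7 of 7 were called lower in INSL3-KO at P23 (median -4.04; Tdrd6 -8.39, Piwil1 -7.40 and Mael -4.87), while in INSL3-KI at P40 the median was -1.52 and the 7 had edgeR adjusted p values of 0.0178 to 0.28. Of the genes of the axoneme and of intraflagellar transport, the class that RFX2 binds, 19 of 19 were called lower in INSL3-KO at P23 (median -6.91), 5 of 19 in INSL3-KI at P40 (median -2.69) and 1 of 19, Tekt2, in INSL3-KI at P23. Tekt2, a tektin of the sperm tail, was at 472 ± 86.9 CPM in WT and 21.9 ± 22.4 CPM in INSL3-KI at P40. The medians of all genes in these comparisons were 0.09 for INSL3-KI at P40, 0.08 for INSL3-KI at P23 and 0.06 for INSL3-KO at P23. Of all genes tested, 22.1%, 11.8% and 33.4% were called lower in these comparisons, in the same order.

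Partners and other germ cell transcription regulators gave 6 of 21 called lower in INSL3-KI at P40 and 14 of 21 in INSL3-KO at P23. Of all genes, 22.1% and 33.4% were called lower there. Sohlh1, a factor of spermatogonia, was the single call higher in both. Fhl5, the coactivator of CREM in spermatids, was at 209 ± 19.1 CPM in WT and 1.01 ± 0.927 CPM in INSL3-KI at P40, a log2 difference of -7.66 ± 0.72 (SE; edgeR adjusted p = 0.000379). Kif17, the kinesin that carries FHL5 in spermatids, was at 632 ± 83.3 CPM and 5.90 ± 1.91 CPM, a difference of -6.70 ± 0.30 (SE; edgeR adjusted p = 5.17e-05). Both were called lower than in WT in INSL3-KI at P23 as well, with log2 differences of -4.19 and -2.97. At P8 5 of 20 were called higher in INSL3-KI, led by Kctd19 and Dmrtc2, and 8 of 19 in the libraries labelled INSL3-KO, where Fhl5 was called lower. Of all genes, 3.03% were called higher in INSL3-KI at P8 and 5.44% in the libraries labelled INSL3-KO. Kctd19, a meiotic partner of ZFP541, stood at 0.143 ± 0.0457 CPM in WT, 52.1 ± 68.1 CPM in INSL3-KI and 3.89 ± 0.425 CPM in INSL3-KO at P8, the INSL3-KI spread again being wider than its mean.

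Relatives of the regulators were compared per length, in FPKM (mean ± SD, n = 3). In WT at P40 Rfx2 stood at 176 ± 3.13 FPKM, Rfx1 at 40.8 ± 5.31, Rfx4 at 27.5 ± 0.760 and Rfx3 at 10.3 ± 2.76. Tbpl1 was at 228 ± 9.23 FPKM and Tbp, the general TATA-binding protein, at 66.9 ± 0.402, whereas at P8 the levels were 15.3 ± 0.382 and 9.08 ± 1.66. Taf7l stood at 56.6 ± 23.7 FPKM at P8 and 18.2 ± 1.94 at P40, and Taf7, the subunit it resembles, at 23.1 ± 4.28 and 6.61 ± 0.451. In the MYB family the order turned with age: Mybl2, of dividing cells, was at 14.6 ± 2.07 FPKM at P8 and 3.26 ± 0.200 at P40, and Mybl1 at 4.43 ± 0.668 and 15.1 ± 2.19. Of 14 relatives tested, 7 were called lower and 1 higher (Creb1, by 1.06) in INSL3-KI at P40, with a median of -1.11; Sox5 (-3.50), Rfx1 (-3.25) and Rfx3 (-1.97) had the largest differences. In INSL3-KO at P23 9 were called lower and 1 higher, led by Rfx4 (-9.14). Of all genes, 22.1% were called lower in INSL3-KI at P40 and 33.4% in INSL3-KO at P23. At P8 the median of the 14 relatives between INSL3-KI and WT was 0.02, with edgeR adjusted p values of 0.0301 to 0.993.

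**Figure D5:**
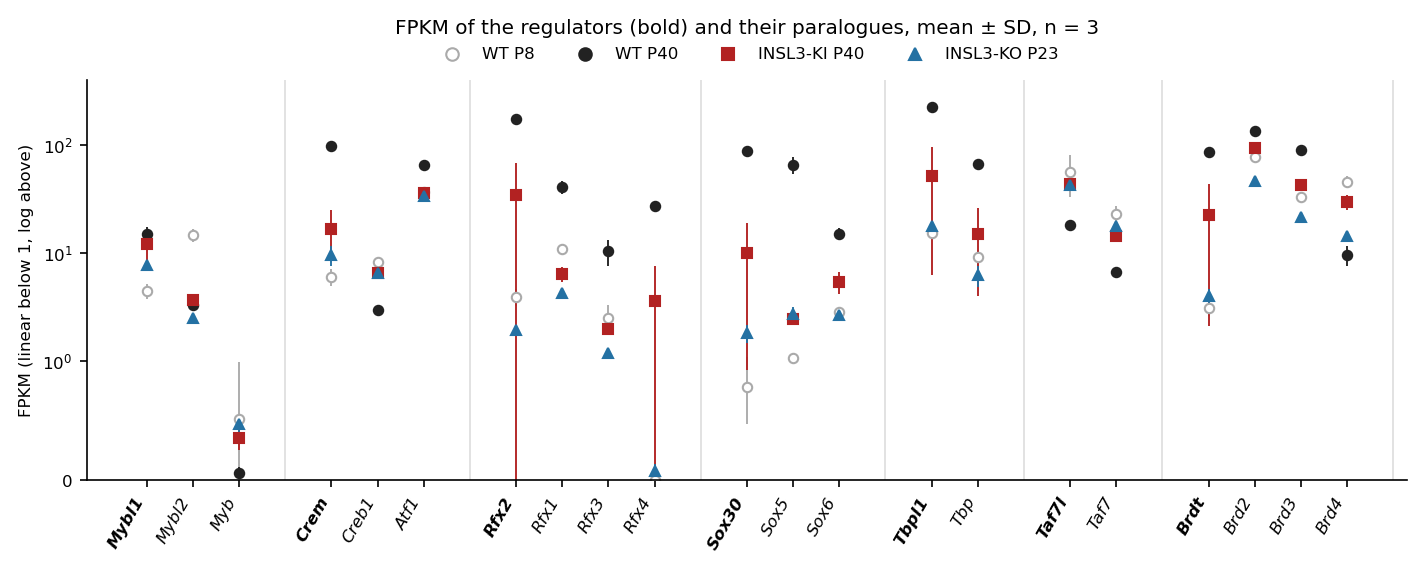
FPKM (linear below 1, log above) of 7 regulators (bold) and their relatives by protein family, as mean ± SD of 3 libraries, in WT at P8 and P40, INSL3-KI at P40 and INSL3-KO at P23; the INSL3-KO values come from the other deposited table. In WT at P40 the bold gene is the highest of its family in the MYB, CREB, RFX, SOX, TBP and TAF7 families, and Brd2 and Brd3 have means above Brdt in the BET family.

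Across the 24 libraries, which share age and genotype groups and so are not independent points, the log2 CPM of the 7 genes other than Taf7l correlated pairwise with Pearson's r between 0.93 and 0.99, and each correlated with Taf7l between -0.58 and -0.48. Among 13614 named genes with at least 5 CPM in some testis group, those with the most similar pattern to Rfx2 were Ccdc136, Pfn4 and Pcsk4, to Sox30 Styxl1, Stx17 and Tmem116, to Tcfl5 Fam178b, Trim37 and Ccdc92, to Brdt D1Pas1, Syngr4 and Cep126, to Crem Ppp1r11, Tsacc and Cptp and to Tbpl1 Gnpat, Stt3b and Ranbp9, all with r of at least 0.992. Taf7l was most like Elavl2, Caprin2 and Stra8 (r 0.970 to 0.976). Stra8, the gene that germ cells switch on as they enter meiosis, stood at 51.0 ± 29.7 CPM in WT, 116 ± 22.6 CPM in INSL3-KI and 174 ± 3.43 CPM in the libraries labelled INSL3-KO at P8, the same order as Taf7l. By group mean, Rfx2 and Tcfl5 were highest in WT at P40, Taf7l in the libraries labelled INSL3-KO at P8, and the other 5 in WT at P23; of these, Mybl1 overlapped between WT at P23 and P40.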

How the data were processed

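RNA of 24 testis libraries (8 groups of genotype and age, 3 libraries labelled as biological replicates in each) was analysed from 2 deposited tables per unit, of 39 libraries in all. For the deposited counts, the authors sequenced mRNA libraries as 150 bp paired reads and mapped them with HISAT2 to GRCm38, per the submitters' processing notes; the counting program, annotation release and use of strand are not given in the sources used here. The deposited FPKM values were computed by the authors and were used for comparisons between genes and as an alternative. The tables were joined on Ensembl identifiers (21561 shared genes, holding 94.2 to 97.9% of testis counts), and the differences that cross the tables may carry differences between them.

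Counts were tested with edgeR 4.0.16 (TMM scaling, filterByExpr with a minimum count of 10, quasi-likelihood F test, Benjamini-Hochberg adjustment over all genes tested) on the groups compared, and 2 differences of differences with the 4 groups in 1 fit. A call needed an adjusted p under 0.01 and a change of at least 2-fold. Alternatives were library size scaling, no filter, a block for the replicate number, DESeq2 1.42.0, limma 3.58.1 on log2(FPKM + 1) and log2(FPKM + 0.1), 1 fit of all testis groups, and leaving out each library. The test code was checked on simulated counts with the same spread in every library, so the check does not cover libraries that stand apart. CPM were scaled by TMM over the 24 libraries. No library pair of a group agreed within sampling noise, and the spread differed between groups. The lowest Pearson's r of log2 CPM between libraries of a group was 0.974, 0.992 and 0.987 in WT at P8, P23 and P40. It was 0.993 and 0.986 in INSL3-KO at P8 and P23, and 0.913, 0.858 and 0.905 in INSL3-KI at P8, P23 and P40. P-values measure the spread between these libraries. The regulators and the gene lists were chosen with earlier results of these data known. Genes of the lists were named as at most the 3 with the largest change in a direction among those called, together with a few chosen after their values were seen (Prm1, Tekt2, Kctd19, Stra8 and the relatives given in FPKM). Promoter windows came from RefSeq (GRCm38.p6); gene positions came from GENCODE on GRCm38. Gubernaculum libraries entered no test. The genes most like Mybl1 in pattern are not reported here.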

Additional observations from a re-analysis of the deposited data

Results flagged for a closer look

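The difference of INSL3-KI from WT was tested for a change between P8 and P40, and edgeR found one at an adjusted p under 0.01 for 7 of the 8 regulators, where 22.5% of all 17354 genes were called lower. On the log2 scale the effect at P40 minus that at P8 was -2.16 for Mybl1, -3.68 for Tcfl5, -4.10 for Crem, -4.98 for Rfx2, -7.11 for Sox30, -2.97 for Tbpl1 and -4.72 for Brdt. In each of the 7 the effect was above 0 at P8 and below 0 at P40, as a fitted difference in 3 libraries against 3 at each age. Without WT replicate 1 or 2 at P40 the count was 4. It was 5 without any 1 of the WT libraries at P8 or without INSL3-KI replicate 2 at P40.

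The change from P8 to P23 was tested between INSL3-KI and INSL3-KO, and it was larger in INSL3-KI for 6 of the 8 by the same test, where 11.7% of all 17052 genes were called higher. The differences were 3.48 for Tcfl5, 2.69 for Crem, 3.97 for Rfx2, 2.92 for Sox30, 2.30 for Tbpl1 and 2.74 for Brdt. The count was 2 without any 1 of 10 of the 12 libraries, 7 without INSL3-KI replicate 2 at P8 and 6 without INSL3-KI replicate 3 at P23. The libraries of each genotype come from their own table, and the libraries labelled INSL3-KO at P8 held Insl3 reads.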

How the results depend on the processing

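The number of regulators called, as in the report, was recomputed under each alternative. It was within 1.5 times the reported count under every alternative for INSL3-KO against WT at P23, INSL3-KI against INSL3-KO at P23 and the 3 comparisons of WT ages. Between INSL3-KI and WT at P8 it was 0 as reported, 5 with DESeq2, 4 in 1 fit of all testis groups, 1 with limma on log2(FPKM + 0.1) and 0 to 2 with a library left out. At P40 the reported 3 became 7 with DESeq2, 6 with limma at either pseudocount, 6 in 1 fit and 0 to 7 with a library left out. At P23 the 2 became 0 to 2 with a library left out. Between INSL3-KO and WT at P8 the 3 became 1 in 1 fit and 1 to 3 with a library left out. In INSL3-KI from P8 to P23 the 2 became 8 with DESeq2, 4 with limma at either pseudocount, 8 in 1 fit and 0 to 8 with a library left out, and from P23 to P40 the 0 became 3 in 1 fit. In INSL3-KO from P8 to P23 the 1 became 3 under library size scaling and 2 with limma at either pseudocount. The differences of differences ranged from 4 to 7 called (reported 7) and from 2 to 7 (reported 6) with a library left out. The number of all genes called moved with the method as well. In INSL3-KI from P8 to P23 it was 935 higher with edgeR, 3538 with DESeq2 and 3810 in 1 fit. The cause of the moves in the regulator counts was not tested. That includes the fits with a library left out, for which the number of all genes called is not given here.

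In the main fits the replicate number was not treated as a pairing. No comparison had all 3 correlations of same-numbered libraries above 0.1 (INSL3-KI at P40 and P23 gave 0.719, -0.647 and 0.666). These were taken on deviations from group means, into which the INSL3-KI libraries that stand apart enter, so they do not settle whether samples were paired. With the replicate block, INSL3-KI from P8 to P23 had 7 regulators called and INSL3-KI against WT at P23 had 1, and the other counts stayed within 1.5 times.

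Log2 differences changed sign in these cases, none of them called in the report. Under library size scaling and limma with pseudocounts of 1 and 0.1, in that order, they became 0.40, 0.42 and 0.44 for Mybl1 (P23 INSL3-KI minus WT), 0.024, 0.036 and 0.036 for Tcfl5 (P23 INSL3-KI minus WT), 0.090, 0.0090 and 0.011 for Rfx2 (P8 INSL3-KO minus WT), -0.16, -0.14 and -0.14 for Taf7l (P23 INSL3-KI minus INSL3-KO). They became 0.014, 0.071 and 0.074 for Mybl1 (WT P40 minus P23), 0.12, 0.16 and 0.17 for Taf7l (INSL3-KI P40 minus P23), -0.11, -0.0083 and -0.0079 for Crem (INSL3-KO P23 minus P8), -0.23, -0.20 and -0.20 for Tbpl1 (INSL3-KO P23 minus P8) in the same order. For Brdt (WT P40 minus P23) it was 0.0027 with both limma fits. For Taf7l in the difference of the INSL3-KI effects it was 0.062 under library size scaling and 0.019 with limma at 0.1. With a library left out, differences that took both signs ran from -0.18 to 0.14 for Mybl1 (P23 INSL3-KI minus WT), -0.11 to 0.13 for Rfx2 (P8 INSL3-KO minus WT), -0.13 to 0.11 for Taf7l (P23 INSL3-KI minus INSL3-KO), -0.090 to 0.090 for Mybl1 (WT P40 minus P23), -0.18 to 0.059 for Taf7l (INSL3-KI P40 minus P23), -0.039 to 0.078 for Tbpl1 (INSL3-KO P23 minus P8).

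Depth did not limit the values much, as every testis library held at least 33000204 counts. The limits are 3 libraries a group, single INSL3-KI libraries that stand apart in germ cell genes, comparisons across tables, unknown use of strand where Tcfl5 and Tbpl1 overlap other genes, and libraries labelled INSL3-KO at P8 with Insl3 reads. A further limit is that the libraries labelled WT at P23 held Prm2 at levels near those of WT at P40.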

Other observations

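The same regulators were also read in the gubernaculum, the ligament on which INSL3 acts, where germ cells are not part of the tissue. Crem, which has transcripts outside germ cells, was at 10.4, 8.33 and 7.20 FPKM in WT at P8, 22.6, 17.9 and 20.8 FPKM in INSL3-KI and 23.1, 18.5 and 22.1 FPKM in INSL3-KO. At P23 it was at 7.03, 8.50 and 6.77 FPKM in WT and 21.2, 9.34 and 10.9 FPKM in INSL3-KI. Tbpl1 at P8 was at 12.7, 11.3 and 10.9 FPKM in WT, 22.5, 22.1 and 19.1 FPKM in INSL3-KI and 17.1, 18.4 and 17.8 FPKM in INSL3-KO. At P23 Tbpl1 was at 10.99, 12.2 and 12.4 FPKM in WT and 12.7, 7.66 and 28.7 FPKM in INSL3-KI, which overlap. Rfx2 at P8 was at 7.27, 10.55 and 7.87 FPKM in WT, 5.03, 4.55 and 4.81 FPKM in INSL3-KI and 3.23, 3.17 and 3.48 FPKM in INSL3-KO. At P23 it was at 2.80, 3.30 and 4.69 FPKM in WT and 2.83, 2.95 and 3.19 FPKM in INSL3-KI, which overlap as well. Group means of Mybl1, Tcfl5, Sox30, Taf7l and Brdt lay between 0.0329 to 2.03 FPKM in the gubernaculum groups. These values were not tested, and INSL3-KO comes from the other deposited table than WT and INSL3-KI.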
